A study of Mus musculus with 13 samples.

Results

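The comparison described here is that of untreated keratinocytes with and without Cre in mice whose Il12rb2 alleles are floxed, across all genes with enough counts. Its members are 7 of the 13 libraries of the series, taken by genotype and treatment from the labels. The K14Cre group (K14Cre/+ Il12rb2fl/fl, untreated) has 4 libraries, and the floxed control group (Il12rb2fl/fl without Cre, untreated) has 3. The cells were interfollicular keratinocytes, which form the epidermis between hair follicles, obtained from C57/BL6 skin with a FACS sort. Both groups carry the floxed alleles and neither received Aldara, the imiquimod cream that the remaining 6 libraries (3 per genotype) saw for 1 day. In the K14Cre mice the keratin 14 promoter drives Cre, which restricts recombination mainly to keratinocytes and other epithelial cells of the skin. A group with Cre and no floxed alleles was not analysed here, so the presence of Cre and the deletion of Il12rb2 cannot be told apart. The labels number the replicates and do not say whether each came from its own animal, so p-values reflect only how much these samples vary, which could be technical variation.

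Interleukin-12 is a cytokine of dendritic cells and macrophages that signals through a receptor of the subunits IL12RB1 and IL12RB2, with the kinases JAK2 and TYK2 and the transcription factor STAT4. It is best known for driving type 1 immune responses of T cells and natural killer cells, in which interferon-gamma is made. The title of the series asks how it acts on type 3 immunity, that of interleukin-17 and interleukin-22, through keratinocytes. Keratinocytes themselves answer injury, cytokines and stress with a known set of transcripts, among them the keratins Krt6 and Krt16, ligands of the EGF receptor, proteases and alarmins such as Tslp. The untreated comparison shows the state of these cells before any inflammation is applied.

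Depth ranged from 5830034 to 16511356 counts in the K14Cre libraries and from 10226953 to 22232478 counts in the floxed control libraries. The libraries were not alike within a group. Genes with a count numbered 21410, 21097, 14320 and 14620 in K14Cre replicates 1 to 4. In floxed control replicates 1 to 3 they numbered 18595, 22430 and 15896. K14Cre replicates 1 and 2 and floxed control replicate 2 held 5.21%, 10.3% and 14.2% of their counts in the predicted gene Gm10800. The other 4 libraries held 0.361% or less. On the first principal component of the 7 libraries (47.5% of the variance) the 3 high libraries were lowest, at -40.2, -83.5 and -115. K14Cre replicates 3 and 4 were at 109 and 105, and floxed control replicates 1 and 3 at -20.5 and 44.5. The genotypes overlapped on it, though K14Cre was above floxed control among the high and among the low libraries. Results were therefore also computed without the 3 libraries high in Gm10800. The defining markers of keratinocytes were abundant. Krt14 stood at 20521 to 32629 CPM (counts scaled to library size with TMM factors) in K14Cre libraries and 11523 to 21471 CPM in floxed control libraries, and Krt5, its partner in the basal layer, at 8837 to 17087 CPM in K14Cre libraries and 6451 to 9991 CPM in floxed control libraries.

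The floxed gene itself, Il12rb2 (GRCm38 chromosome 6, 67291318 to 67376188, minus strand), was counted at 22.7, 8.52, 25.6 and 19.0 CPM in K14Cre replicates 1 to 4, against 17.1, 78.8 and 52.7 CPM in floxed control replicates 1 to 3. Floxed control replicates 2 and 3 were above all K14Cre libraries, and floxed control replicate 1 was within their range, so the groups overlapped. The log2 difference of -1.38 (SE 0.69) did not pass (edgeR quasi-likelihood test, adjusted p = 1.00), and it was -0.88 without floxed control replicate 2 and -0.60 without the 3 libraries high in Gm10800. Between 43 and 329 reads per K14Cre library were still assigned to the gene. The labels do not name the floxed exons, and a count over the whole gene includes exons outside them, so it checks the genotype labels only in part. Il12rb1, the other receptor subunit, had 3, 3, 0 and 15 counts in K14Cre libraries and 0, 4 and 0 counts in floxed control libraries, too few for a fold change.

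Across 16051 genes tested, edgeR called none at an adjusted p under 0.05 (0.0%), and the smallest adjusted p was 0.874. At an unadjusted p under 0.05 there were 599 genes (3.73%), of which 397 were higher in K14Cre (2.47% of those tested) and 202 lower (1.26%). The CPM values of the genotypes did not overlap for 968 genes (6.03%), 445 of them higher in K14Cre (2.77%) and 523 lower (3.26%). The median log2 difference over all genes was -0.05. Without K14Cre replicate 4 the unadjusted counts were 179 higher and 110 lower, and without K14Cre replicate 2 they were 567 and 510. Limma voom also called 0 genes (551 higher and 630 lower at an unadjusted p under 0.05), and DESeq2 called 22 (0.137%).

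**Figure D1:**
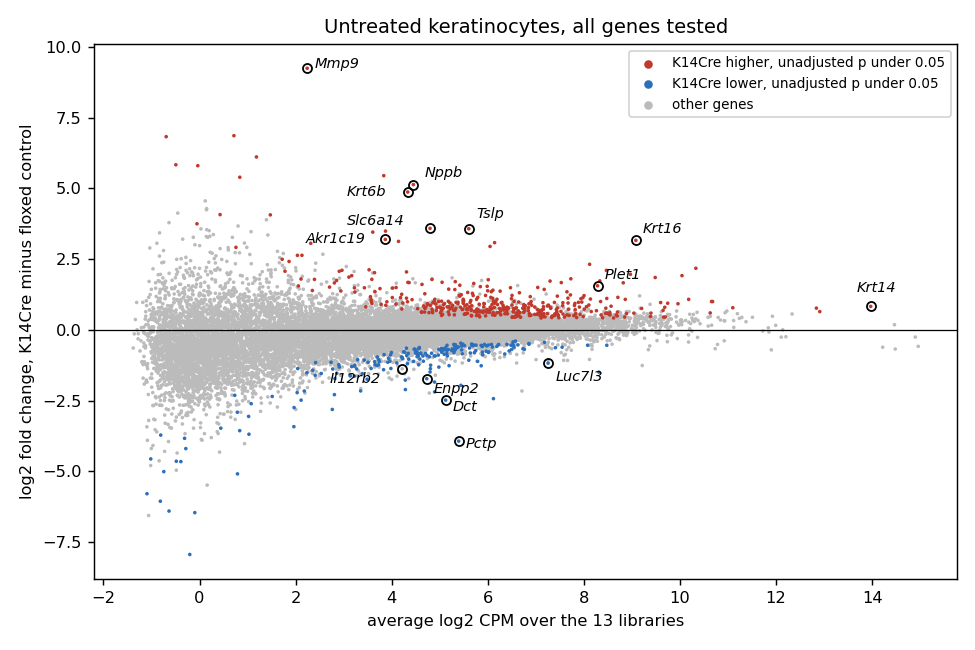
Each point is 1 of 16051 genes, with its average log2 CPM over 13 libraries on the x axis and its log2 fold change, K14Cre minus floxed control in untreated cells, on the y axis. Red and blue points have an unadjusted p under 0.05 (397 higher and 202 lower in K14Cre), circled genes are named in the text, and no gene passed after adjustment.

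The genes at the head of the ranking on the higher side included Krt16 and Tgfa of the wound and stress list and the cytokine gene Tslp. The 12 given here have the smallest p among 359 genes (average log2 CPM 3 or more) whose K14Cre values all lay above all floxed control values, leaving out predicted genes, so the absence of overlap is how they were chosen and their values are a description. Their log2 differences ran from 1.34 to 5.13, and none passed the adjusted test (adjusted p of 0.874 to 1.00).

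Krt16, a keratin that healthy skin between follicles holds at low levels and that injury induces (chromosome 11, 100246091 to 100248902, minus strand), stood at 938, 389, 1277 and 2404 CPM in K14Cre replicates 1 to 4, against 124, 101 and 195 CPM in floxed control replicates 1 to 3. The lowest K14Cre library was above the highest floxed control library, and K14Cre replicate 4 was the highest of all. The log2 difference was 3.16 (SE 0.71, edgeR adjusted p = 0.874). Tgfa, a ligand of the EGF receptor (chromosome 6, 86195223 to 86275719, plus strand), read 47.7, 29.1, 32.5 and 53.2 CPM in K14Cre libraries and 13.8, 15.6 and 15.6 CPM in floxed control libraries, a log2 difference of 1.44 (SE 0.32). The floxed control values for Tgfa were close together, and all K14Cre values lay above them.

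Tslp, an epithelial cytokine that acts on dendritic cells and type 2 immune cells (chromosome 18, 32815383 to 32819797, plus strand), was counted at 91.7, 18.6, 198 and 182 CPM in K14Cre libraries, against 14.2, 3.73 and 12.8 CPM in floxed control libraries. K14Cre replicate 2, the shallowest library, came nearest to the floxed control values. The log2 difference was 3.57 (SE 0.86, edgeR adjusted p = 1.00). Nppb, which encodes the brain natriuretic peptide (chromosome 4, 147985788 to 147987205, plus strand), had 6.26, 34.1, 18.9 and 107 CPM in K14Cre libraries and 1.10, 0.32 and 1.94 CPM in floxed control libraries. The floxed control values rest on 15, 3 and 43 reads, and the K14Cre values differ widely among themselves. Its log2 difference, 5.13 (SE 1.05), was the largest of the 12, and it was 4.06 to 5.78 with a library left out.

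Plet1, known from the upper hair follicle and from migrating keratinocytes (chromosome 9, 50494525 to 50505482, plus strand), had the smallest p of all genes. It read 560, 340, 383 and 719 CPM in K14Cre libraries and 199, 125 and 186 CPM in floxed control libraries, a log2 difference of 1.56 (SE 0.32, edgeR adjusted p = 0.874). Gadd45a, a sensor of DNA damage and growth arrest, stood at 66.2, 54.9, 92.5 and 130 CPM in K14Cre libraries, against 23.1, 20.8 and 35.1 CPM in floxed control libraries. Within the high Gm10800 libraries the log2 ratio of mean CPM was 1.85 for Plet1 and 1.54 for Gadd45a, and within the low ones 1.51 and 1.93. The rule of choice fixes the sign of these ratios, and the only high floxed control library is replicate 2. Slc6a14, a broad amino acid transporter, read 45.5, 21.2, 84.1 and 142 CPM in K14Cre libraries and 6.48, 6.18 and 5.68 CPM in floxed control libraries, a log2 difference of 3.58 (SE 0.88).

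The remaining 5 of the 12 were Ndrg1, a gene induced by hypoxia and stress (log2 difference 1.34), Rgs2, a brake on G protein signalling (1.64), Noct, a rhythmic phosphatase (1.42), the aldo-keto reductase gene Akr1c19 (3.19) and Pxdc1 (1.53). Ndrg1 had 284 to 520 CPM in K14Cre libraries against 123 to 201 CPM in floxed control libraries, and Akr1c19 had 9.99 to 62.6 CPM in K14Cre libraries against 1.25 to 3.97 CPM in floxed control libraries. Akr1c19 belongs to a family of near-identical genes, and since the handling of reads that map to several places is not given in the sources used here, its count is uncertain.

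On the lower side the 12 genes with the smallest p, of 303 chosen by the same rule, had log2 differences of -0.89 to -3.93, and all had an adjusted p of 0.874 or above. Luc7l3, a splicing factor of the U1 particle (chromosome 11, 94287890 to 94321988, minus strand), read 91.4, 117, 97.7 and 73.8 CPM in K14Cre libraries and 259, 212 and 172 CPM in floxed control libraries. Values within each group were close, and the log2 difference was -1.18 (SE 0.25). Enpp2, which encodes autotaxin, the enzyme that makes lysophosphatidic acid (chromosome 15, 54838901 to 54952892, minus strand), had 13.5, 24.0, 10.3 and 16.5 CPM in K14Cre libraries, against 37.7, 60.5 and 60.5 CPM in floxed control libraries, a log2 difference of -1.73 (SE 0.37).

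Pctp, which encodes a phosphatidylcholine transfer protein (chromosome 11, 89982665 to 90002894, minus strand), had 19, 11, 0 and 0 counts in K14Cre replicates 1 to 4, against 310, 85 and 87 counts in floxed control replicates 1 to 3. The K14Cre libraries without a read were replicates 3 and 4, which had the fewest genes with a count. The floxed control values themselves spread from 3.92 to 22.8 CPM. Bhlhe41, a repressor within the circadian clock, stood at 23.9, 12.9, 24.3 and 5.77 CPM in K14Cre libraries and 107, 35.8 and 52.9 CPM in floxed control libraries, a log2 difference of -1.96 (SE 0.55). It was the only member of the 19 tested clock genes with an unadjusted p under 0.05, where 1.26% of all genes were lower and 2.47% higher. None of the 19 had such a p on the higher side, and the list's median log2 difference was 0.30. Without floxed control replicate 3 there were 1 higher and 2 lower. Dph5, an enzyme of diphthamide synthesis, had the smallest log2 difference of the 12 (-0.89, SE 0.24), with close replicates, at 18.3 to 21.01 CPM in K14Cre libraries and 32.3, 38.5 and 40.9 CPM in floxed control libraries.

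Of the other 7 lower genes, 6 are given here, of which Dct, an enzyme of melanin synthesis, is taken up with the melanocyte markers. Slc35d1, a nucleotide sugar transporter (log2 difference -1.17), the peptidase gene Pgpep1 (-1.41), the activin receptor gene Acvr1b (-1.11), Kazald1 (-1.49) and the mitochondrial pyrimidine nucleotide carrier Slc25a33 (-1.64) were the others. The value for Slc25a33 rests on floxed control replicate 2, at 15.2 CPM against 3.17 and 4.15 CPM in floxed control replicates 1 and 3 and 2.02 to 2.74 CPM in K14Cre libraries, and it was -0.61 without that library.

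**Figure D2:**
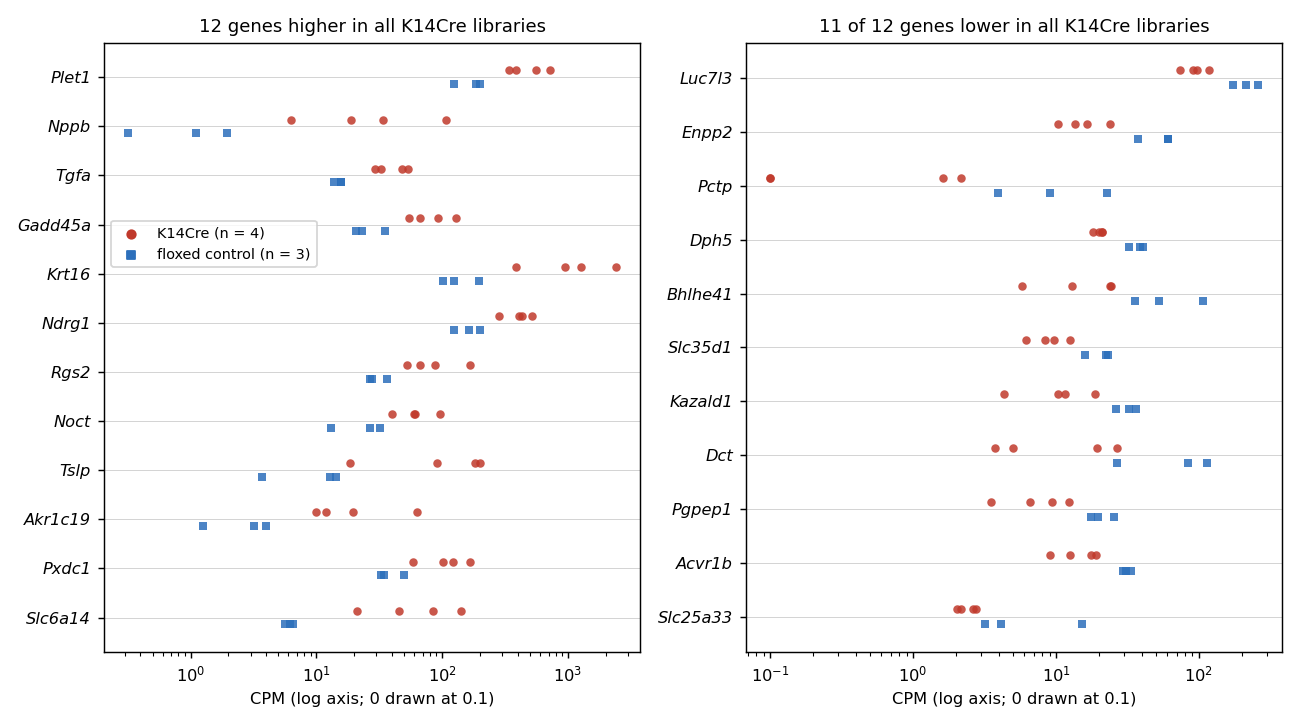
CPM on a log axis for the 12 higher genes (left) and 11 of the 12 lower genes (right), with the 4 K14Cre libraries as red circles above the 3 floxed control libraries as blue squares in each row, and values of 0 drawn at 0.1. For Krt16 the K14Cre libraries run from 389 to 2404 CPM and the floxed control libraries from 101 to 195 CPM. The groups are apart in every row because that was the rule of choice.

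DESeq2, run on the same genes, called 22, with 20 higher and 2 lower. The 2 lower were Luc7l3 and Enpp2, and of the 12 higher genes above it called Plet1, Nppb, Tgfa, Gadd45a, Krt16, Ndrg1, Rgs2, Noct, Tslp, Akr1c19 and Pxdc1. The others it called were Mmp9, Clcf1, Ifrd1, Ccdc85b, Thbs1, Ovol1, Ier3, Uap1 and Sprr1b. Of these, Ier3 and Sprr1b are named by the rule for lists, and the rest after their values were seen. Mmp9, a gelatinase of wound edges, had 32, 0, 98 and 188 counts in K14Cre libraries and 0 counts in all 3 floxed control libraries. Taking 3 counts over the floxed control group as the floor, the pooled Mmp9 reads were at least 106-fold higher in K14Cre. That bound covers the sampling of reads and not the spread between libraries, and K14Cre replicate 2 also held no read. The edgeR log2 difference was 9.24 (SE 3.09). Clcf1, a cytokine that signals through the CNTF receptor and STAT3, read 8.999, 13.9, 37.0 and 85.8 CPM in K14Cre libraries and 2.87, 1.60 and 5.14 CPM in floxed control libraries. Thbs1, an adhesive matrix glycoprotein, was counted at 2347, 1084, 2590 and 3370 CPM in K14Cre libraries against 266, 755 and 846 CPM in floxed control libraries. Ovol1, a transcription factor that favours epidermal differentiation, stood at 339 to 932 CPM in K14Cre libraries against 177 to 288 CPM in floxed control libraries. With edgeR the adjusted p of these 9 genes was 1.00.

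Of the gene lists, the wound and stress list held the largest share of members with an unadjusted p under 0.05. All 22 of its genes were tested, 11 had such a p and were higher in K14Cre, none was lower, and the median log2 difference was 1.30, against 2.47% higher and a median of -0.05 over all genes. None passed the adjusted test. The lists were chosen with earlier results of these data known, so this share is a description and not a test of the list. Of the 11, 10 are given here: Tgfa, Krt16, Sprr1b, Krt6b, Mmp9, Krt6a, Mmp13, Hbegf, Plaur and Areg, the last 7 of them named after their values were seen. The count was 7 without floxed control replicate 1 or 3, 6 without K14Cre replicate 4 and 10 without the 3 libraries high in Gm10800. The list's median then ran from 0.94 to 1.55. Over all genes the share higher at this p was 1.55% and 3.04% without floxed control replicates 1 and 3. It was 1.12% without K14Cre replicate 4 and 3.43% without the 3 libraries high in Gm10800. It ran from 1.12% to 3.61% with 1 library left out, so leave-out counts of higher genes in all lists need this background.

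Of the other keratins in the list, Krt6a read 31.8, 93.1, 169 and 580 CPM in K14Cre libraries, against 84.7, 12.6 and 34.4 CPM in floxed control libraries, and the groups overlapped. Krt6b had 0.34, 3.76, 3.58 and 49.8 CPM in K14Cre libraries and 0.44, 0.53 and 0.50 CPM in floxed control libraries, and its log2 difference was 4.87, and 2.33 without K14Cre replicate 4. Krt6a and Krt6b are near-identical in sequence and their reads may be split between them. Krt17, already abundant in both groups, stood at 1888 to 3112 CPM in K14Cre libraries and 1049 to 2253 CPM in floxed control libraries (log2 difference 0.66, unadjusted p = 0.0753 by edgeR).

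Among ligands of the EGF receptor besides Tgfa, Hbegf read 144, 129, 162 and 247 CPM in K14Cre libraries and 49.3, 121 and 117 CPM in floxed control libraries, without overlap but with floxed control replicates 2 and 3 close to the lowest K14Cre value. Areg had 40.3, 10.7, 35.1 and 49.6 CPM in K14Cre libraries against 4.27, 8.64 and 18.9 CPM in floxed control libraries, where K14Cre replicate 2 lay among the floxed control values. The log2 differences were 0.83 (SE 0.34) for Hbegf and 1.68 (SE 0.77) for Areg.

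Genes of matrix proteolysis in the list had few reads. Plaur, the receptor of urokinase, had 13.4, 8.52, 12.9 and 31.4 CPM in K14Cre libraries and 3.61, 3.09 and 5.09 CPM in floxed control libraries. Its values did not overlap between the genotypes, and the log2 difference was 2.07. Mmp13, a collagenase, rested on K14Cre replicate 4, at 108 CPM against 4.46 to 9.18 CPM in the other K14Cre libraries and 0, 2.45 and 0 CPM in floxed control libraries.

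**Figure D3:**
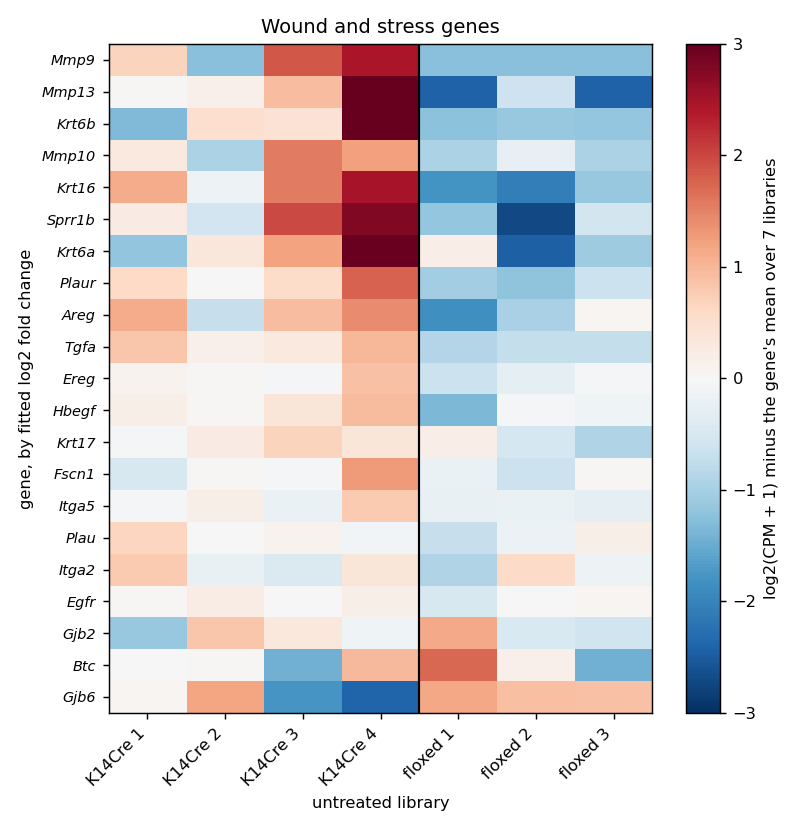
The wound and stress genes (21 of 22 shown) by library, coloured by log2(CPM + 1) minus the gene's mean over the 7 untreated libraries, with the 4 K14Cre libraries left of the 3 floxed control libraries and genes ordered by fitted log2 fold change. In the rows of Krt6b, Mmp13 and Krt16 the K14Cre replicate 4 tile is the reddest.

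NF-kB subunits and feedback genes followed, with 6 of 18 tested members at an unadjusted p under 0.05 and higher in K14Cre, and none lower. Of all genes 2.47% were higher at this p. The list's median log2 difference was 0.60. Icam1, an adhesion molecule and classic NF-kB target, read 390, 271, 439 and 597 CPM in K14Cre libraries and 131, 230 and 181 CPM in floxed control libraries (log2 difference 1.23, SE 0.35). Rel and Rela, which encode NF-kB subunits, differed by 1.22 (SE 0.36) and 0.76 (SE 0.24), and only Rel was without overlap of the 2. The count was 3 without floxed control replicate 1 or K14Cre replicate 3, and 8 without the 3 libraries high in Gm10800. Floxed control replicate 1 had the lowest summed level of this list, 1813 CPM, and K14Cre replicate 4 the highest, 7171 CPM.

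Among alarmins, cytokines and chemokines, 3 of 24 tested genes had such a p, all higher in K14Cre (2.47% of all genes): Tslp, Cxcl16 and Tnf. The count was 5 of 25 tested without floxed Aldara replicate 2 and 6 of 25 without floxed Aldara replicate 3. It was 2 without floxed control replicate 2 or K14Cre replicate 4. The Aldara libraries are outside the contrast but share its filter, scaling and estimate of the spread. Cxcl16, a chemokine made by epithelia, stood at 362, 296, 305 and 556 CPM in K14Cre libraries and 190, 172 and 219 CPM in floxed control libraries. Tnf had 16.5, 14.5, 33.5 and 44.1 CPM in K14Cre libraries against 7.59, 8.21 and 4.37 CPM in floxed control libraries, with no overlap and a log2 difference of 2.02 (SE 0.94). The alarmin Il1a, named after its values were seen, did not overlap either (12.1 to 37.2 CPM in K14Cre libraries and 6.09 to 7.57 CPM in floxed control libraries), though its unadjusted p was 0.078 by edgeR. Immediate-early genes, which sorting can also induce, had 4 of 23 higher at this p, led by Ier3 (1.08), Fosl1 (1.80) and Gadd45b (0.87), and the list's median was 0.36. Without floxed control replicate 1 the count was 2 and the median 0.13. The summed level of that list was 20718 to 31488 CPM in K14Cre libraries, and 10698 CPM in floxed control replicate 1 against 25081 and 25038 CPM in floxed control replicates 2 and 3. Its part in the other differences was not tested.

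Of 19 tested genes of the interleukin-12 receptor and JAK-STAT signalling, 1 had an unadjusted p under 0.05, against 3.73% of all genes. It was Stat5a, a transcription factor of cytokine receptors (log2 difference -0.60, SE 0.23, edgeR adjusted p = 1.00). Stat5a read 33.8, 35.4, 21.2 and 28.4 CPM in K14Cre libraries and 48.2, 43.0 and 44.0 CPM in floxed control libraries. The list's median was 0.27, and it was -0.08 without floxed control replicate 1. Without K14Cre replicate 3 the count was 0, without floxed control replicate 2 it was 2 higher and 1 lower, and without the 3 libraries high in Gm10800 it was 2 in each direction. Ptpn2, a phosphatase that restrains JAK-STAT signalling, was without overlap at 70.7 to 94.7 CPM in K14Cre libraries against 53.7 to 66.2 CPM in floxed control libraries (0.46, SE 0.24). Of 15 tested genes of the keratinocyte response to interleukin-17 and interleukin-22, Il17ra alone had such a p, with a log2 difference of 1.01 (SE 0.35), and the list's median was 0.55. That median was -0.09 without K14Cre replicate 4, and the count was 0 without floxed control replicate 2 and 2 without floxed control replicate 1 or 3 or K14Cre replicate 1. Without the 3 libraries high in Gm10800 there were 4 higher and 3 lower. S100a8, an antimicrobial protein of inflamed epidermis, was under 1 CPM in 3 of 4 K14Cre libraries and at 12.2 CPM in replicate 4, against 2.58, 0 and 0.54 CPM in floxed control libraries.

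Interferon-gamma targets and antigen presentation genes had 1 of 32 lower at an unadjusted p under 0.05 (Irgm2, -1.04) and none higher, with a median of -0.41. Over all genes 202 (1.26%) were lower at this p, 510 without K14Cre replicate 2 and 813 without the 3 libraries high in Gm10800. Without K14Cre replicate 2 the list had 13 lower and a median of -0.81. Without those 3 libraries it had 13 lower and a median of -0.94, and without floxed control replicate 1 it had 0 lower and a median of -0.05. With any 1 of K14Cre replicates 1, 3 and 4 left out the count was also 0, and without floxed control replicate 2 it was 2. Cxcl9, a chemokine that interferon-gamma induces, had 5.49, 20.2, 3.19 and 2.95 CPM in K14Cre libraries and 25.6, 15.9 and 14.6 CPM in floxed control libraries, where K14Cre replicate 2 again stood with the floxed control libraries. Type I interferon-stimulated genes had 1 of 30 lower (Bst2) and none higher, with a median of -0.98. In 27 of these 30 genes the 2 highest libraries were floxed control replicate 1 and K14Cre replicate 2. Isg15, a ubiquitin-like protein that interferons induce, read 1.29, 25.5, 0.62 and 0.96 CPM in K14Cre libraries and 85.7, 3.94 and 3.20 CPM in floxed control libraries. Without floxed control replicate 1 the list's median was 0.54, and without K14Cre replicate 2 it was -2.76 with 21 members lower at an unadjusted p under 0.05. Without the 3 libraries high in Gm10800 the median was -3.31 with 23 members lower. Of the single libraries left out, only floxed control replicate 1 changed the sign of the median.

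**Figure D4:**
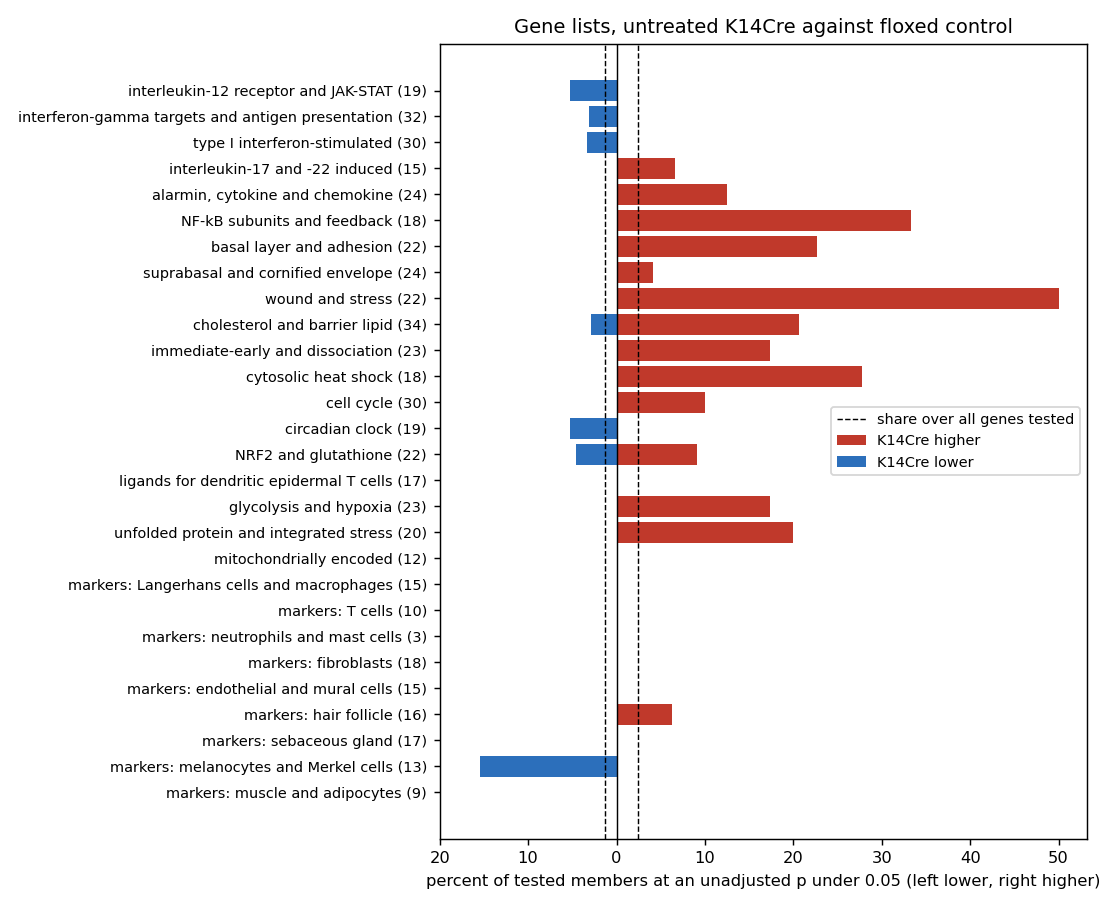
For each gene list, the percent of tested members (number in brackets) with an unadjusted p under 0.05 that were higher (red, to the right) or lower (blue, to the left) in K14Cre, with the shares over all genes, 2.47% higher and 1.26% lower, as dashed lines. The wound and stress list (11 of 22) reaches furthest, and several lists, among them the ligands for dendritic epidermal T cells, have no such member.

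Basal layer and adhesion genes had 5 of 22 members higher at an unadjusted p under 0.05 (2.47% of all genes) and none lower, with a median of 0.37. They included Krt14 (log2 difference 0.83, SE 0.34), Krt5 (0.64, SE 0.30) and Col17a1, a collagen of hemidesmosomes (0.78, SE 0.32). Col17a1 read 4857, 2699, 3896 and 5394 CPM in K14Cre libraries and 1359, 2637 and 3361 CPM in floxed control libraries, and the groups overlapped. The count was 0 without floxed control replicate 1 or K14Cre replicate 4, 1 without K14Cre replicate 1, 3 without floxed control replicate 2, 9 without K14Cre replicate 3 and 10 without floxed control replicate 3. Suprabasal and cornified envelope genes had 1 of 24 higher, Sprr1b, a cross-linked envelope protein that injury also induces (3.12, SE 0.93), and a median of 0.27.

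Of 34 tested cholesterol and barrier lipid genes, 7 were higher at an unadjusted p under 0.05 and 1 was lower, with a median of 0.28. The shares of all genes were 2.47% higher and 1.26% lower. Sqle, the squalene epoxidase of sterol synthesis, stood at 82.8, 88.1, 152 and 158 CPM in K14Cre libraries and 68.9, 48.4 and 63.3 CPM in floxed control libraries (log2 difference 1.00, SE 0.26). The 1 lower gene was the fatty acid elongase Elovl6, at 53.2, 147, 235 and 57.2 CPM in K14Cre libraries against 517, 354 and 169 CPM in floxed control libraries (-1.49, SE 0.52). The count of higher genes was 3 without K14Cre replicate 3 or 4, 4 without floxed control replicate 2 and 11 without the 3 libraries high in Gm10800.

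At an unadjusted p under 0.05, 2.47% of all genes were higher and 1.26% lower. Cytosolic heat shock genes had 5 of 18 higher at this p, led by Hspa8 (0.60), Hspb8 (0.82) and Hspb1 (0.42). Their count was 1 without floxed control replicate 1 or 2 and 2 without K14Cre replicate 1, 3 or 4. Genes of the unfolded protein and integrated stress response had 4 of 20 higher, led by the transcription factor Atf4 (0.80), the chaperone Hspa5 (0.69) and Sesn2 (1.00), a count that was 2 without floxed control replicate 2 or K14Cre replicate 4. Glycolysis and hypoxia genes had 4 of 23 higher, among them Ndrg1, the hypoxia factor Hif1a (0.88) and the hydroxylase Egln3 (0.95), and the median was 0.48. This last count was 1 without floxed control replicate 2 and 9 without floxed control replicate 3 or K14Cre replicate 2. NRF2 and glutathione genes had 2 of 22 higher, Gsta4 (2.12) and Hmox1 (1.46), and 1 lower, Gpx2 (-1.38), around a median of -0.03. The higher count was 0 without floxed control replicate 2 and 1 without K14Cre replicate 4, and the median was 0.04 without floxed control replicate 3. Cell cycle genes had 3 of 30 higher, the replication helicase subunits Mcm2 (0.81), Mcm5 (0.79) and Mcm6 (0.65), and in each of the 3 K14Cre replicate 1 lay below all floxed control libraries. That count was 0 without floxed control replicate 2 or K14Cre replicate 4, 1 without K14Cre replicate 3 and 5 without K14Cre replicate 1. None of 17 ligands and selecting genes of dendritic epidermal T cells had an unadjusted p under 0.05. Skint1, the gene that selects these T cells, read 81.9, 57.2, 105 and 121 CPM in K14Cre libraries and 58.6, 83.1 and 64.8 CPM in floxed control libraries.

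Transcripts of other cell types were also counted. Melanocyte and Merkel cell markers had 2 of 13 lower at an unadjusted p under 0.05, Dct and Pmel, against 1.26% of all genes. The count was 1 without floxed control replicate 2 or K14Cre replicate 3 or 4. Dct had 19.2, 26.5, 3.73 and 5.00 CPM in K14Cre libraries and 114, 83.6 and 26.9 CPM in floxed control libraries, without overlap but with K14Cre replicate 2 next to floxed control replicate 3 (log2 difference -2.48, SE 0.73, edgeR adjusted p = 1.00). Pmel, a melanosome protein, had 13.1 to 28.1 CPM in K14Cre libraries against 21.4 to 72.4 CPM in floxed control libraries. In bulk samples fewer cells of a type and less RNA per cell cannot be told apart. The summed level of the list was 44.3 to 929 CPM in K14Cre libraries and 226 to 419 CPM in floxed control libraries, the high end being K14Cre replicate 1.

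Of 16 tested hair follicle markers only Plet1 had an unadjusted p under 0.05 (3.73% of all genes). The list's median was -0.55, with summed levels of 1347 to 2918 CPM in K14Cre libraries and 1502 to 3586 CPM in floxed control libraries. No member had such a p among 15 markers of Langerhans cells and macrophages, 10 of T cells, 3 of neutrophils and mast cells, 18 of fibroblasts, 15 of endothelial and mural cells, 17 of sebaceous glands or 9 of muscle and adipocytes. Without K14Cre replicate 2, 3 markers of endothelial and mural cells and 3 of Langerhans cells and macrophages were lower at this p. Without the 3 libraries high in Gm10800 these counts were 6 and 3. In these settings 510 and 813 of all genes were lower. The fibroblast sum was 1296 to 3024 CPM in K14Cre libraries and 1360 to 1864 CPM in floxed control libraries, and the macrophage and Langerhans cell sum was 427 to 1015 CPM in K14Cre libraries and 462 to 894 CPM in floxed control libraries. T cell markers summed to 45.9 to 52.7 CPM in K14Cre libraries and 29.4 to 58.7 CPM in floxed control libraries. Their part in the differences above was not tested. The 4 Y-linked genes looked for had 2 reads or fewer in each of the 7 libraries and were not tested.

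Mitochondrially encoded transcripts were below 0 in log2 difference for all 12 tested, with a median of -0.64. None had an unadjusted p under 0.05. That count was 6 without K14Cre replicate 2, where 510 of all genes were lower, and 4 without floxed Aldara replicate 3. The mitochondrial share of counts was 5.08%, 9.80%, 6.88% and 4.40% in K14Cre libraries and 10.9%, 9.38% and 12.1% in floxed control libraries, so that K14Cre replicate 2 alone stood among the floxed control libraries. Of the single genes, mt-Nd1 read 12567, 23018, 18675 and 13246 CPM in K14Cre libraries against 24885, 26928 and 25685 CPM in floxed control libraries (log2 difference -0.61, SE 0.33), and mt-Nd2 differed by -0.67 (SE 0.33).

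**Figure D5:**
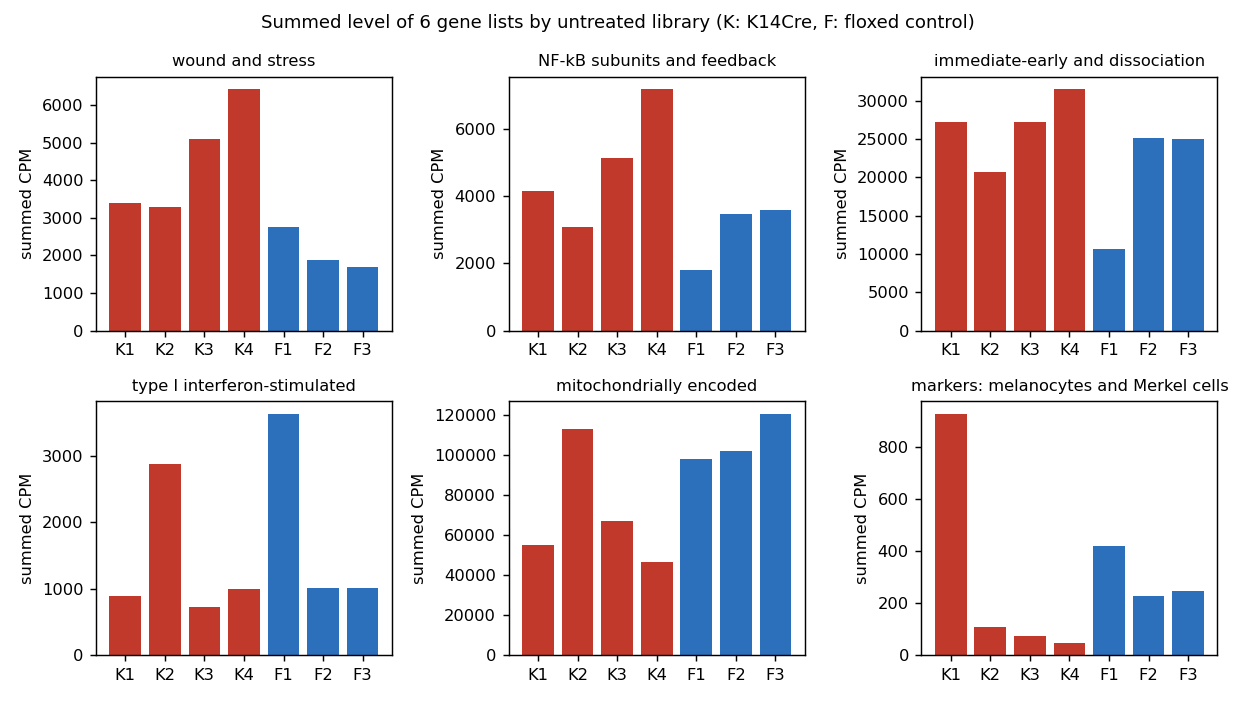
Summed CPM of 6 gene lists in the 4 K14Cre libraries (K1 to K4, red) and the 3 floxed control libraries (F1 to F3, blue), each panel on its own linear axis from 0. The wound list is 3293 to 6419 CPM in K14Cre and 1682 to 2751 CPM in floxed control libraries, while the type I interferon list peaks in 1 library of each genotype and the melanocyte and Merkel cell list in K1.

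The 12 higher genes were also read in the Aldara libraries of the same genotypes. These are outside the untreated contrast but were part of the fit whose p ranked the 12 genes, so this reading is not independent. After Aldara their log2 differences, K14Cre minus floxed control, were -0.55 to 1.57, with 9 of 12 above 0, and none passed (smallest edgeR adjusted p = 0.982). Tslp differed by -0.05 (SE 0.81) after Aldara against 3.57 untreated, Plet1 by -0.13 (SE 0.32) against 1.56, and Slc6a14 by -0.55 (SE 0.83) against 3.58. Krt16 differed by 1.57 (SE 0.69) against 3.16, and Tgfa by 0.93 (SE 0.32) against 1.44. For the 12 lower genes the range after Aldara was -2.04 to 0.57, with 7 of 12 below 0. The shares of all genes above and below 0 after Aldara were not counted, so these signs are a description. The difference between the untreated and the Aldara contrast was tested as an interaction over all 16051 genes, and edgeR called none (0.0%, with 335 positive and 204 negative at an unadjusted p under 0.05). Among the 12 higher genes its smallest unadjusted p was 0.00183, for Plet1 (adjusted p = 1.00). The genes were chosen for their difference in untreated cells, so nothing is read from its being larger there.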

How the data were processed

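Bulk RNA sequencing was done on sorted interfollicular keratinocytes. Per the labels' protocols, libraries were made by Smart-seq2, which marks neither strand nor molecules, and read single-end on a NovaSeq instrument. The authors deposited raw read counts per Ensembl gene, and STAR, Subread's featureCounts and the build GRCm38 are named in the submitters' processing notes. Versions, annotation, strand setting and the treatment of multimapping reads were not given in the sources used here, so counts of near-identical, overlapping or antisense genes are uncertain.

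The table held 25746 genes. Filtering with filterByExpr (minimum count 10) in edgeR 4.0.16 (R 4.3.3) left 16051. TMM scaling, a quasi-likelihood fit of all 13 libraries with 1 coefficient per group (common dispersion 0.424) and Benjamini-Hochberg adjustment over all genes tested gave the contrast K14Cre minus floxed control without Aldara, with calls at an adjusted p under 0.05. SE is the log2 difference divided by the square root of F. An adjusted p printed as 1.00 is at least 0.99. CPM values use the TMM-scaled library sizes. DESeq2 1.42.0 and limma 3.58.1 (voom) were alternatives. No replicate pair within a group agreed within sampling noise (chi-square per degree of freedom 54.5 to 322). Coordinates are those of GENCODE M21 (GRCm38), which held 25635 of the identifiers. The steps were tested on simulated counts.

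The members, the 29 gene lists (593 symbols, 588 found, 533 tested) and the tests were chosen with earlier results of these data known. The rule for named genes takes every called gene, the 12 higher and 12 lower genes with the smallest p among genes without overlap (average log2 CPM 3 or more), the genes Il12rb2, Il12rb1, Krt14 and Krt5, and up to 3 members with the smallest p from each list. Other genes named were chosen after their values were seen. A few genes that the rule names are not reported here. No sequence is printed, since none carries these results.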

Additional observations from a re-analysis of the deposited data

Results flagged for a closer look

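In 6 of 82 genes examined, 1 of the 4 K14Cre libraries stood apart from the other 3, with a gap to the nearest that exceeded Dixon's 95% limit for 4 samples. For values drawn from a normal distribution chance gives such a gap in about 1 of 20 groups. The limit was applied to CPM on the linear scale, and some of the genes were named after their values were seen. That rate therefore need not hold here. Replicate 4 was the high library for Krt6b, at 49.8 CPM against 0.34 to 3.76 CPM in the other K14Cre libraries, for Mmp13, at 108 against 4.46 to 9.18 CPM, and for S100a8, at 12.2 against 0.54 to 0.79 CPM. Replicate 2 was the high library for Bst2, at 38.8 CPM against 0.47 to 3.27 CPM, for Isg15, at 25.5 against 0.62 to 1.29 CPM, and for Cxcl9, at 20.2 against 2.95 to 5.49 CPM.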

How the results depend on the processing

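The count of 0 called genes was the same with RLE size factors, limma voom, a robust fit, a minimum count of 30, only the 7 untreated libraries, a term for Gm10800, predicted genes above 1% left out, the 3 libraries high in Gm10800 left out, and every one of the 13 single libraries left out (0 to 0). DESeq2 called 22 genes, and with no filter on low counts edgeR called 3 (Nppb, Pctp and Krt16). At an unadjusted p under 0.05, 808 genes were higher and 617 lower with the term for Gm10800, and 544 and 813 without the 3 libraries high in it. The interaction count of 0 was 5 with DESeq2 (Atp6v1g3, Grk3, Syne3, Upk3a and Ccdc80) and 0 to 1 with a library left out, the 1 being Ccdc80 without floxed control replicate 3. The labels do not say whether the replicate numbers pair the samples. Deviations of same-numbered libraries correlated at -0.10, 0.42 and 0.30 for numbers 1 to 3. Those of differently numbered libraries correlated at -0.44 to 0.37. With a replicate block 0 genes were called (183 higher and 95 lower at an unadjusted p under 0.05), Il12rb2 was at -0.94, and S100a8 reversed to -0.55. Il12rb2 ran from -1.78 to -0.88 with a library left out. Its log2 ratio of mean CPM within the 3 libraries high in Gm10800, an alternative chosen after seeing the data, was -2.34. The only floxed control library in that ratio is replicate 2, the highest for Il12rb2 (78.8 CPM). Of the other genes named, 3 changed sign with a library left out: S100a8 (-0.76 to 3.42), Bst2 (-4.64 to 0.32) and Isg15 (-5.01 to 0.90). Depth limits low genes such as Il12rb1 and Mmp9 most, though neither had a read in floxed control replicate 3, the deepest untreated library (22232478 counts).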
